A study of Mus musculus with 27 samples.

Results

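Collagen chain genes are the 44 genes of the 20446 in the count table whose Ensembl identifier maps to a mouse symbol of the form Col, a type number, the letter a and a chain number. The members were taken by that symbol rule, and 34 of the 44 had enough reads to be tested. They were read in C2C12 cells, a mouse myoblast line whose cells fuse into myotubes in low serum, after growth in 10% fetal bovine serum, differentiation in 2% horse serum and a 2 h pulse of 50% horse serum that sets cell clocks to a common phase. Total RNA depleted of ribosomal RNA was sequenced at 12, 18, 24, 30, 36, 42, 48, 54 and 60 h after the pulse, with 3 libraries at each time and 27 in all. All libraries come from the same line under the same treatment, and no culture without the pulse was analysed, so each comparison is between times after the pulse and a change with time in differentiation medium cannot be told apart from a change that follows the pulse.

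Collagens are secreted or membrane-bound proteins built from 3 chains wound into a triple helix. Fibrillar chains form the load-bearing fibrils of connective tissue, basement membrane chains form the sheet that wraps each muscle fibre, and network chains form open lattices. FACIT chains (fibril-associated collagens with interrupted triple helices) sit on the surface of fibrils, beaded filament chains form the microfibrils of type VI collagen that link cell and matrix, and transmembrane chains span the cell membrane. Multiplexins are basement membrane proteins that carry both a collagen part and sugar chains. In muscle this matrix holds fibres together, carries force and anchors nerve endings.

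By class, the 44 genes comprise 11 fibrillar, 6 basement membrane, 3 network, 9 FACIT, 4 transmembrane, 6 beaded filament and 2 multiplexin chains and 3 others (Col7a1, Col26a1 and Col28a1). RefSeq promoter windows, 250 bases before to 50 bases after the transcription start on build GRCm38.p6, were found for 35 of the members (38 windows of 32851). The 9 members without a window include the abundant chains Col1a1, Col5a2 and Col12a1, while Col6a4, Col6a5 and Col6a6, with few reads, have one. Shares of windows below therefore do not stand for the expressed members. The 4 windows below are shown because they belong to 2 pairs of partner chains, the type VIII chains, one of which had the largest increase of all members at 60 h against 12 h, and the type IV chains, which had small upward trends and share a divergent start. Each is written 5′ to 3′ on the gene's strand, and capitals mark the GC box (GGGCGG or its reverse complement CCGCCC), the core letters that factors of the Sp family bind.

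Col8a2, chr4:126286544-126286843, plus strand: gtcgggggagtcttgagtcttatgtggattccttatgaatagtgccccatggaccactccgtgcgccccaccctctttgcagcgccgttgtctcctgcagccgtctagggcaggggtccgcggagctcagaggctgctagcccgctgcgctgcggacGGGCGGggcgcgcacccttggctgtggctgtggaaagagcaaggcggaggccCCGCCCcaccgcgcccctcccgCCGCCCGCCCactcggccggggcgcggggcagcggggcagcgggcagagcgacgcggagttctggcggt

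Col8a1, chr16:57754688-57754987, minus strand: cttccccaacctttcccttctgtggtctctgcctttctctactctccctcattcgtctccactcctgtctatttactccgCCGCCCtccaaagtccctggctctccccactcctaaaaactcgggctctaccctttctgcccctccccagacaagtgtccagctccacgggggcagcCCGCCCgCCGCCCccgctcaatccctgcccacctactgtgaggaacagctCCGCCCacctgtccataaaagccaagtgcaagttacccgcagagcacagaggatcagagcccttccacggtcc

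Col4a1, chr8:11312777-11313076, minus strand: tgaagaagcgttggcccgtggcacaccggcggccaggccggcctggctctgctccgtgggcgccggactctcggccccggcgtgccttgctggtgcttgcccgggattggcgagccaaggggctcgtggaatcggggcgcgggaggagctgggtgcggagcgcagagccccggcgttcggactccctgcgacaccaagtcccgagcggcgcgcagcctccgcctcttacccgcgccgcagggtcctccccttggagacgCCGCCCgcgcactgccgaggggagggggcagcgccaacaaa

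Col4a2, chr8:11312555-11312854, plus strand: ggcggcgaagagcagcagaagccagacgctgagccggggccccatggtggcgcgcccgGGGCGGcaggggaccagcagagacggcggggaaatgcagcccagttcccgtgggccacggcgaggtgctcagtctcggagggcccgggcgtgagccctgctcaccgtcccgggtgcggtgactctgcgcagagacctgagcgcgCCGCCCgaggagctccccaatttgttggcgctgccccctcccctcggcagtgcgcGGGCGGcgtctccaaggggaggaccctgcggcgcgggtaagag

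The Col8a2 and Col8a1 windows each held 4 GC boxes, the Col4a2 window 3 and the Col4a1 window 1. Over both strands, 23 of the 38 member windows (60.5%) held a GC box, against 35.7% of all windows. The member windows were also richer in G and C, with a median of 59.8% against 52.7% for all windows, and its part in the share of GC boxes was not tested. The CCAAT box (letters CCAAT or ATTGG) was in 34.2% of member windows and in 37.4% of all windows, and TATAAA or TTTATA in 13.2% and 13.6%. The E-box CACGTG, the letters bound by the core clock activators, was in 0 of 38 member windows and in 7.15% of all. At that share few of 38 windows would hold it, so 0 does not set the members apart. These are letter matches in fixed windows and show no binding. Col4a1 and Col4a2 are transcribed away from each other and their annotated genes overlap by 22 bases, so their windows hold the same 78 bases (chr8:11312777-11312854) read from opposite strands.

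Counted reads per library ranged between 15.2 and 26.6 M, with a median of 20.9 M. Myotube markers were abundant throughout, with the summed level of 10 markers at 18820 to 18900 CPM (counts relative to the library's total) in the 60 h libraries and 18190 to 19410 CPM in the 12 h libraries. Nothing states that the 3 libraries of a time came from separate cultures, so p-values below reflect library-to-library spread alone and that spread may be technical. In total RNA of a culture, fewer cells of a type and less RNA per cell cannot be told apart. A member is said to have risen or fallen where edgeR's quasi-likelihood test gave an adjusted p (Benjamini-Hochberg, over the whole set of 12687 tested genes) under 0.05, log2 differences carry their standard error (SE), and the linear trend is the fitted log2 change over the 48 h of the series in a model with a 24 h wave.

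The collagen RNA of these cells was dominated by a few fibrillar chains. The 34 tested genes and the 10 others together took 22340 CPM at 60 h (2.23% of counted reads) and 17480 CPM at 12 h (1.75%), a ratio of 1.28, and their sum was highest at 30 h with 22860 CPM. Fibrillar chains made up 73.4% of collagen CPM over all libraries. Col3a1, the chain of type III collagen, alone made up 35.8%, and Col1a2, the second chain of type I collagen, 12.0%. Mean levels were at least 1000 CPM for 5 members, 100 to 1000 CPM for 10, 1 to 100 CPM for 17, and under 1 CPM for Col22a1 (0.657 CPM) and Col20a1 (0.598 CPM).

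Divided by exon length, which allows levels of different genes to be compared, Col3a1 stood first with 769.6 CPM per kb, followed by the type V chain Col5a2 with 276.9, Col1a2 with 204.4 and Col5a1 with 181.8 CPM per kb. The type IV chains Col4a1 (162.3 CPM per kb) and Col4a2 (112.1) lay on both sides of Col1a1 (142.2). The level per kb was 88.0 for Col6a1, 79.5 for Col6a3, 73.7 for Col8a1 and 64.8 for Col12a1. From Col5a2 down to Col12a1 the library ranges of neighbours in this order overlapped, while all libraries of Col3a1 lay above them. Lower were Col18a1 (41.8 CPM per kb), Col5a3 (32.3), Col8a2 (30.9), Col6a2 (13.3), Col4a5 (10.8) and Col16a1 (10.2), and the other tested members were at or below 2.65 CPM per kb. With the length of the longest transcript in place of all exons, Col1a2 was at 474.8 and Col5a2 at 400.9 CPM per kb, which puts Col1a2 ahead of Col5a2, while Col3a1 stayed first at 1358 CPM per kb.

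**Figure D1:**
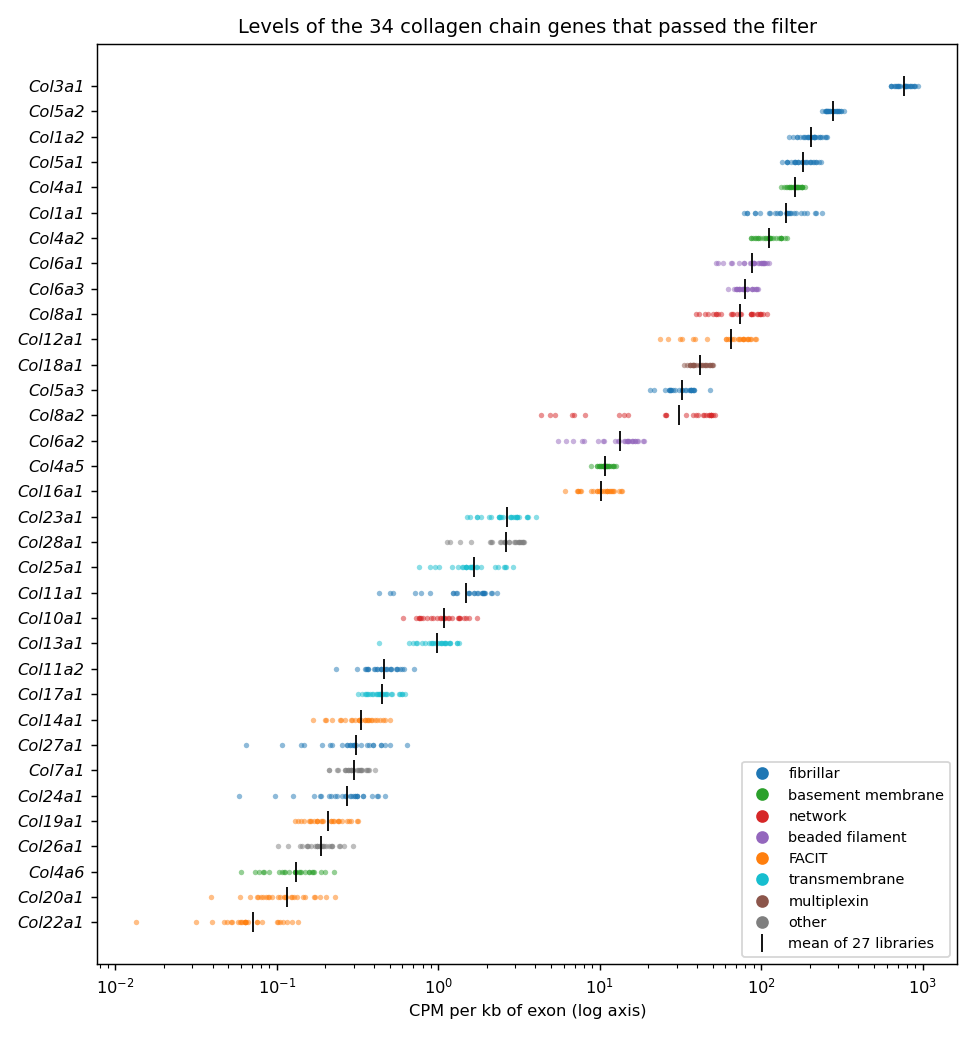
CPM per kb of exon (log axis) for the 34 collagen chain genes that passed the filter, ordered by mean, with a point for each of the 27 libraries, a bar at the mean and colour for the class. Col3a1 stands apart at the top with a mean of 769.6 CPM per kb, and Col8a2 spreads the most among members above 10 CPM per kb, with library values from 19.3 to 232 CPM before division by length.

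The 10 members that did not pass the filter were near the detection limit. Col15a1, the second multiplexin, reached at most 0.507 CPM (107 reads in all libraries together), and Col9a3, a cartilage FACIT chain, 0.443 CPM (104 reads). The type VI chains Col6a4, Col6a5 and Col6a6 reached 0.361, 0.394 and 0.0451 CPM, and the kidney and inner ear chains Col4a3 and Col4a4 reached 0.140 and 0.144 CPM. Col2a1, the main cartilage fibril chain, reached 0.243 CPM, and its partners Col9a1 and Col9a2 reached 0.134 and 0.0933 CPM. None of these 10 entered the tests that follow, and the counts below are of the 34 members that passed.

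Over the 9 time points 21 of the 34 tested members changed, against 18.5% of all genes tested. At 60 h against 12 h, 18 members were higher, where 9.5% of all genes tested were, and 1 was lower (Col19a1), where 6.56% were. The median log2 difference between 60 h and 12 h was 0.51 over the members and -0.01 over all genes tested. By the linear trend 16 members rose (10.7% of all genes tested) and 1 fell (Col18a1; 8.72% of all genes tested), with a median of 0.38 for members and -0.01 for all genes. All 3 libraries of 60 h lay above all 3 of 12 h for 23 of the 34 members, and for 16.7% of all genes tested. They lay below for Col11a2, Col18a1 and Col19a1, and for 15.5% of all genes tested. The count of members that rose by the trend depended on the first time point, since without the 12 h libraries it was 10.

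The share of members called higher at 60 h than at 12 h varied by class, beside 9.5% of all genes tested. All 3 network chains, 7 of 10 fibrillar, 3 of 6 FACIT, 2 of 3 beaded filament, 2 of 4 transmembrane and 1 of 3 other chains were higher at 60 h than at 12 h, and none of the 4 basement membrane chains and not the tested multiplexin. Summed over the class, network chains were at 1022 CPM at 60 h against 351.5 CPM at 12 h (ratio 2.91), and FACIT chains at 1215 against 469.3 CPM (2.59). Fibrillar chains were at 16130 against 13250 CPM (1.22), basement membrane chains at 2210 against 1825 CPM (1.21) and beaded filament chains at 1440 against 1232 CPM (1.17). Transmembrane chains were at 48.8 against 35.9 CPM (1.36) and the multiplexins at 258.8 against 305.1 CPM (0.848). A class sum follows its most abundant member, and the medians of the members' log2 differences were 1.29 for network, 0.78 for beaded filament, 0.74 for FACIT, 0.46 for transmembrane, 0.37 for fibrillar and 0.23 for basement membrane chains. Differences between classes were not tested. A call depends on spread as well as size. Col4a2 (0.36 ± 0.15 log2) and Col4a1 (0.23 ± 0.09 log2) were not called, while the fibrillar Col5a2 (0.26 ± 0.06 log2) and Col3a1 (0.18 ± 0.06 log2) were.

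**Figure D2:**
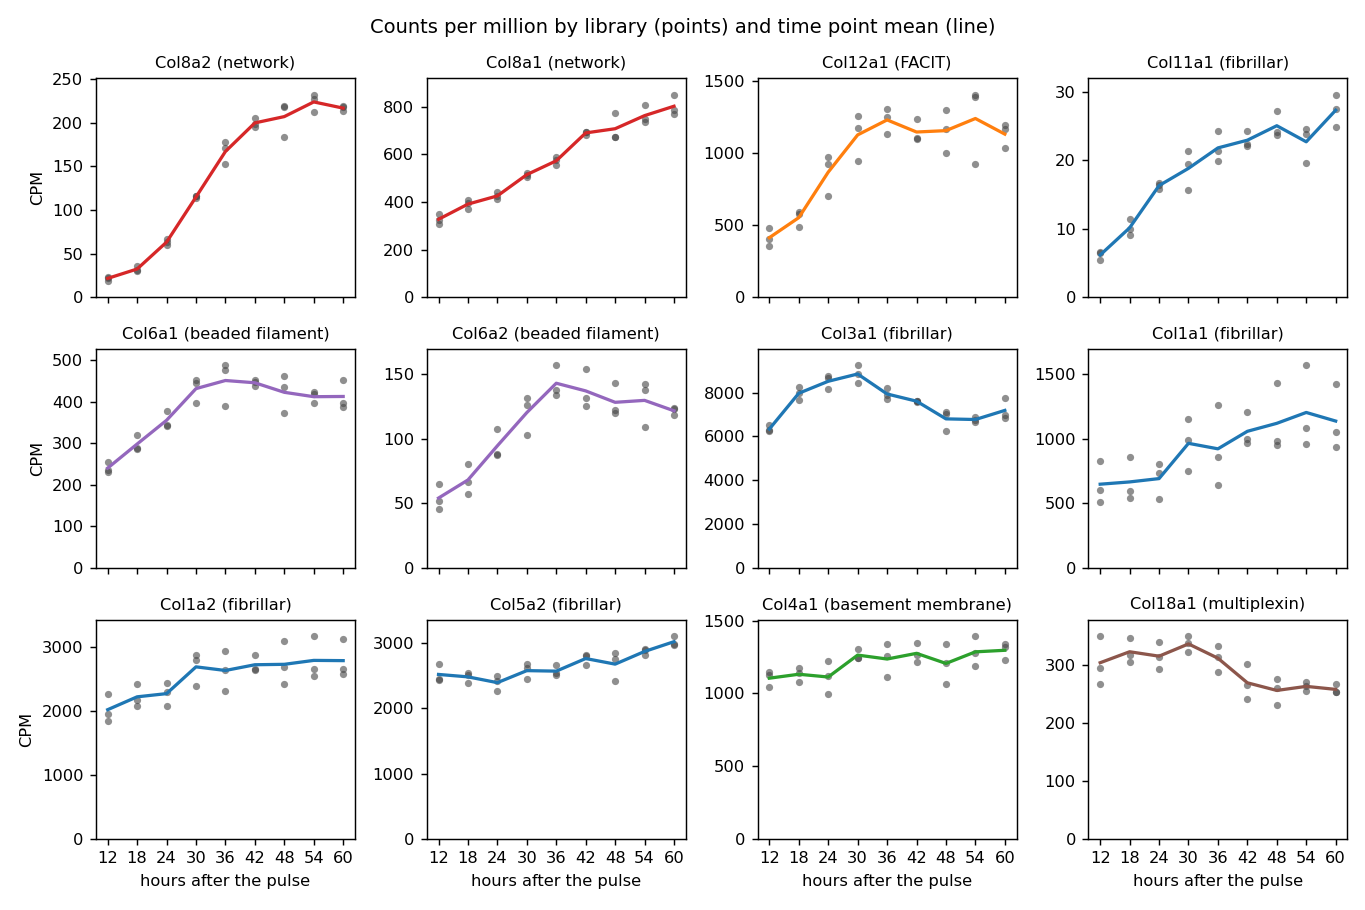
CPM at 12 to 60 h for 12 collagen chain genes, a point per library and a line through the means of 3, each axis starting at 0. Col12a1, Col6a1 and Col6a2 climb steeply until 30 to 36 h and then level off, Col8a2 and Col11a1 climb most steeply until then and reach their highest means at 54 h (224 CPM) and 60 h (27.3 CPM), Col8a1 climbs to the end, Col3a1 peaks at 30 h (mean 8849 CPM) and Col18a1 lies lower from 42 h on.

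The network chains of type VIII collagen, which form hexagonal lattices in the cornea and the vessel wall, rose, and Col8a2 had the largest difference of the 34 members. Col8a2 (chr4:126286793-126314330, plus strand) had 213, 218 and 219 CPM in the 60 h libraries, against 22.1, 23.8 and 19.3 CPM in the 12 h libraries. Every 60 h library lay far above every 12 h library, and the difference was 3.32 ± 0.09 log2 (SE; adjusted p = 2.65e-17). Its mean passed through 32.5, 63.3, 115, 167, 200, 207 and 224 CPM at 18, 24, 30, 36, 42, 48 and 54 h, and the trend was 3.38 ± 0.33 log2 (adjusted p = 2.07e-08).

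Its partner chain Col8a1 (chr16:57624258-57754737, minus strand) had 850, 769 and 786 CPM at 60 h, against 323, 350 and 309 CPM at 12 h. The groups did not overlap, and the difference was 1.29 ± 0.06 log2 (adjusted p = 8.23e-13). Unlike most collagens it rose again between 36 h (555, 587 and 576 CPM) and 60 h, by 0.49 ± 0.06 log2 (adjusted p = 0.000151). Col10a1, the collagen of hypertrophic cartilage, had 3.43, 3.25 and 3.38 CPM at 60 h, against 2.46, 2.27 and 2.40 CPM at 12 h (0.50 ± 0.16 log2, adjusted p = 0.0414), with its highest mean, 4.72 CPM, at 48 h. Its gene lies inside Nt5dc1 on the opposite strand, a gene at 23.2 CPM with a trend of 0.30 ± 0.07 log2 (adjusted p = 0.00185). Whether reads were counted by strand is not given in the sources used here, so the Col10a1 values are uncertain. The call for 60 h against 12 h was lost without any 1 of the 6 libraries of these times, with adjusted p between 0.0705 and 0.121.

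Among FACIT chains the change was carried by Col12a1, which binds type I fibrils and in humans is mutated in a muscle and joint disease. Col12a1 (chr9:79598991-79718831, minus strand) had 1169, 1035 and 1195 CPM at 60 h, against 404, 358 and 480 CPM at 12 h. Every 60 h library lay far above any 12 h library, and the difference was 1.45 ± 0.15 log2 (adjusted p = 2.69e-07). Most of it was reached by 30 h, with means of 553, 869 and 1128 CPM at 18, 24 and 30 h and 1232 CPM at 36 h.

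Col16a1, a FACIT chain of several connective tissues, had 74.9, 70.5 and 81.9 CPM at 60 h, against 41.1, 49.6 and 61.2 CPM at 12 h (0.58 ± 0.14 log2, adjusted p = 0.00544), and without the 12 h library numbered 1 the difference was 0.45 log2 (adjusted p = 0.0526). Col14a1, a fibril-surface chain of tendon and skin, had 3.29, 2.56 and 2.54 CPM at 60 h, against 1.17, 1.73 and 1.39 CPM at 12 h (0.97 ± 0.21 log2, adjusted p = 0.00162). In both genes the groups did not overlap. Col19a1, a chain found in embryonic mouse muscle, was the one member lower at 60 h, with 1.10, 1.12 and 0.891 CPM against 1.99, 1.68 and 1.66 CPM at 12 h (-0.77 ± 0.23 log2, adjusted p = 0.0221). Its means at the times between went up and down between 1.15 and 1.82 CPM, its trend of -0.41 ± 0.22 log2 did not pass the test (adjusted p = 0.207), and the call for 60 h was lost without the 12 h library numbered 1 (adjusted p = 0.097) or the 60 h library numbered 3 (adjusted p = 0.0963). Col22a1, known from the myotendinous junction, had a trend of 0.82 ± 0.32 log2 (adjusted p = 0.0676), and Col20a1 of -0.01 ± 0.34 log2 (adjusted p = 0.993).

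Of the 10 tested fibrillar chains 7 were higher at 60 h than at 12 h, and Col11a1 had the largest difference among them. Col11a1, a chain that type XI collagen of cartilage shares with mixed type V and XI molecules of other tissues, had 29.6, 24.9 and 27.5 CPM at 60 h, against 6.67, 5.47 and 6.40 CPM at 12 h. No library of 60 h was near those of 12 h, and the difference was 2.14 ± 0.12 log2 (adjusted p = 1.20e-11). Col11a2 was at 2.50 ± 0.05 CPM at 60 h and 3.38 ± 0.64 CPM at 12 h (SD, n = 3 each), a difference of -0.44 ± 0.26 log2 that did not pass (adjusted p = 0.316).

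Col1a1 (chr11:94936224-94953042, plus strand), the first chain of type I collagen, had 1421, 935 and 1049 CPM at 60 h, against 602, 512 and 829 CPM at 12 h. The groups did not overlap but spread widely, and the difference was 0.81 ± 0.26 log2 (adjusted p = 0.0332), with a trend of 0.94 ± 0.19 log2 (adjusted p = 0.000543). Col1a2 (chr6:4504814-4541544, plus strand) had 3121, 2576 and 2661 CPM at 60 h, against 1951, 1847 and 2259 CPM at 12 h, again without overlap (0.46 ± 0.11 log2, adjusted p = 0.00544). Part of the spread of Col1a1 went with the replicate number: over the 9 times, libraries numbered 3 lay 0.46 log2 above those numbered 2 for Col1a1, 0.36 for Col5a1, 0.34 for Col5a3 and -0.03 for Col3a1. Across the 34 members this shift had a correlation of r = 0.42 with GC content (0.29 across all genes tested; genes are not independent replicates), and the members' median GC was 55.4% against 49.8%. Each number occurs once at every time, and within number 1, number 2 and number 3 Col1a1 was higher at 60 h. The Col1a1 difference lost its call without the 12 h library numbered 1 or 2 or the 60 h library numbered 1 or 3 (0.76, 0.66, 0.61 and 0.86 log2, highest adjusted p = 0.192), and the Col1a2 difference without the 60 h library numbered 1 (0.37 log2, adjusted p = 0.0542).

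Col3a1 (chr1:45311538-45349706, plus strand), the most abundant collagen, rose early and then came back. It had 7765, 6845 and 6957 CPM at 60 h, against 6286, 6501 and 6235 CPM at 12 h, and its means were 6341, 7971, 8517, 8849, 7938, 7610, 6803, 6774 and 7189 CPM from 12 to 60 h. The 60 h libraries lay above those of 12 h by a small margin (0.18 ± 0.06 log2, adjusted p = 0.0402), a call lost without any 1 of 14 libraries (0.12 to 0.21 log2 over all 27 left out in turn, highest adjusted p = 0.286), while the change over all 9 times had an adjusted p of 9.51e-06. Its neighbour on chromosome 1, Col5a2, whose end lies 24614 bases from that of Col3a1, followed another course. Col5a2 had 3111, 2987 and 2977 CPM at 60 h, against 2434, 2677 and 2456 CPM at 12 h (0.26 ± 0.06 log2, adjusted p = 0.00387), and had its highest mean at 60 h.

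The trends of the other type V chains did not pass the test: Col5a1 had 0.32 ± 0.12 log2 (adjusted p = 0.0512) and Col5a3 0.05 ± 0.15 log2 (adjusted p = 0.874). The mean of Col5a3 was lowest at 24 h (157 CPM) and highest at 12 h (275 CPM), and its change over the 9 times had an adjusted p of 0.0604. The fibrillar chains Col27a1 and Col24a1, both known from cartilage or bone, were higher at 60 h than at 12 h by 1.26 ± 0.29 log2 (adjusted p = 0.00301) and 1.24 ± 0.29 log2 (adjusted p = 0.00395). Both had their highest mean at 30 h, 6.87 CPM for Col27a1 and 3.32 CPM for Col24a1. Without the 9 libraries numbered 2 the Col27a1 difference was 0.87 log2 (adjusted p = 0.107).

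Beaded filament chains build type VI collagen, whose mutations cause muscular dystrophies in humans, and its 3 abundant chains did not change alike. Col6a1 had 453, 397 and 388 CPM at 60 h, against 236, 231 and 254 CPM at 12 h (0.78 ± 0.09 log2, adjusted p = 6.09e-07). Col6a2 had 123, 118 and 124 CPM at 60 h, against 51.6, 46.0 and 65.0 CPM at 12 h (1.17 ± 0.14 log2, adjusted p = 1.68e-06). Neither gene's groups overlapped, and both had their highest mean at 36 h. Col6a3, which encodes the large chain of the same molecule, had 931, 843 and 943 CPM at 60 h, against 866, 890 and 1056 CPM at 12 h, with overlapping groups and a difference of -0.05 ± 0.11 log2 (adjusted p = 0.837).

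Of the 4 tested basement membrane chains 2 rose by the trend, and 0 passed the test of 60 h against 12 h. Col4a1 and Col4a2, the chains of the type IV collagen present in nearly all basement membranes, had small upward trends of 0.22 ± 0.07 log2 (adjusted p = 0.0178) and 0.39 ± 0.10 log2 (adjusted p = 0.00758). Col4a1 was at 1295 ± 61 CPM at 60 h and 1104 ± 56 CPM at 12 h, and Col4a2 at 845 ± 56 CPM at 60 h and 657 ± 94 CPM at 12 h (SD, n = 3 each). Their differences between 60 h and 12 h did not pass (adjusted p = 0.0752 and 0.107). The X-linked chain Col4a5 rose over the first 24 h, with 80.8, 80.8 and 72.0 CPM at 36 h against 59.7, 66.8 and 64.9 CPM at 12 h (0.29 ± 0.07 log2, adjusted p = 0.00838), and was at 68.6 ± 2.5 CPM at 60 h (SD, n = 3). Col4a6 stayed near 1 CPM, with a trend of 0.31 ± 0.27 log2 (adjusted p = 0.474). Without the 12 h library numbered 1 the Col4a1 trend (0.19 log2, adjusted p = 0.0624) and the Col4a5 difference (0.24 log2, adjusted p = 0.0661) did not pass.

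Col18a1 (chr10:77052178-77166548, minus strand), the multiplexin whose C-terminal fragment is endostatin, was the one member with a downward trend, of -0.40 ± 0.08 log2 (adjusted p = 0.000596). It had 255, 254 and 267 CPM at 60 h, against 268, 296 and 351 CPM at 12 h, and means of 337, 313 and 270 CPM at 30, 36 and 42 h. The 60 h libraries lay just below those of 12 h, and the difference between these times alone was -0.24 ± 0.09 log2 (adjusted p = 0.0922).

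Of the transmembrane chains, Col23a1 had 17.2, 16.1 and 23.1 CPM at 60 h, against 9.90, 8.58 and 13.5 CPM at 12 h (0.81 ± 0.20 log2, adjusted p = 0.00617). Col13a1, a chain of the neuromuscular junction, was at 4.56 ± 0.44 CPM at 60 h and 3.05 ± 0.94 CPM at 12 h (SD, n = 3 each; 0.60 ± 0.19 log2, adjusted p = 0.0314), and highest at 36 h with 5.71 CPM. Without the 12 h library numbered 1 its difference was 0.35 log2 (adjusted p = 0.226), and the call was also lost without the 60 h library numbered 2 or 3, as was that of Col23a1 without the 60 h library numbered 3 (0.63 log2, adjusted p = 0.0599). Col17a1, the hemidesmosome chain of skin, had a trend of 0.25 ± 0.16 log2 (adjusted p = 0.312). The course of Col25a1 is described further on. Among the other types, Col28a1, known from peripheral nerve, had 15.7, 16.1 and 16.8 CPM at 60 h, against 5.77, 5.57 and 6.66 CPM at 12 h (1.43 ± 0.13 log2, adjusted p = 4.17e-08). Col7a1, the anchoring fibril chain of skin, had a trend of -0.01 ± 0.16 log2 (adjusted p = 0.975) and Col26a1 of 0.39 ± 0.17 log2 (adjusted p = 0.116).

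Most of the change fell in the first 24 h of the series. At 36 h against 12 h, 18 members were higher (9.3% of all genes tested) and 0 lower (6.75% of all genes tested), and 16 of these 18 were also higher at 60 h than at 12 h. At 60 h against 36 h, 2 members were higher, Col8a1 and Col8a2 (0.497% of all genes tested), and 1 was lower, Col25a1 (0.363%). The median log2 difference of the members was 0.44 for 36 h against 12 h and -0.004 for 60 h against 36 h, and over all genes it was -0.008 and 0.0009. The change over the second 24 h was below that over the first in 13 members (4.38% of all genes tested) and above it in 0 (2.38%), by the contrast that tests this difference, in which the 36 h libraries enter both changes. The largest such differences were -2.57 ± 0.14 log2 for Col8a2 (adjusted p = 1.94e-11) and -2.29 ± 0.45 log2 for Col27a1 (adjusted p = 0.00178). Among the 21 changed members the highest mean fell at 30 h in 4, at 36 h in 6, at 42 h in 1, at 48 h in 1, at 54 h in 4 and at 60 h in 5. The count of 13 was 8 without the 9 libraries numbered 2. The later rise of Col8a2 lost its call without 5 of the 6 libraries of 36 and 60 h left out in turn (the exception was the 36 h library numbered 3; highest adjusted p = 0.138), and the later fall of Col25a1 without any of the 6 (highest adjusted p = 0.141).

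**Figure D3:**
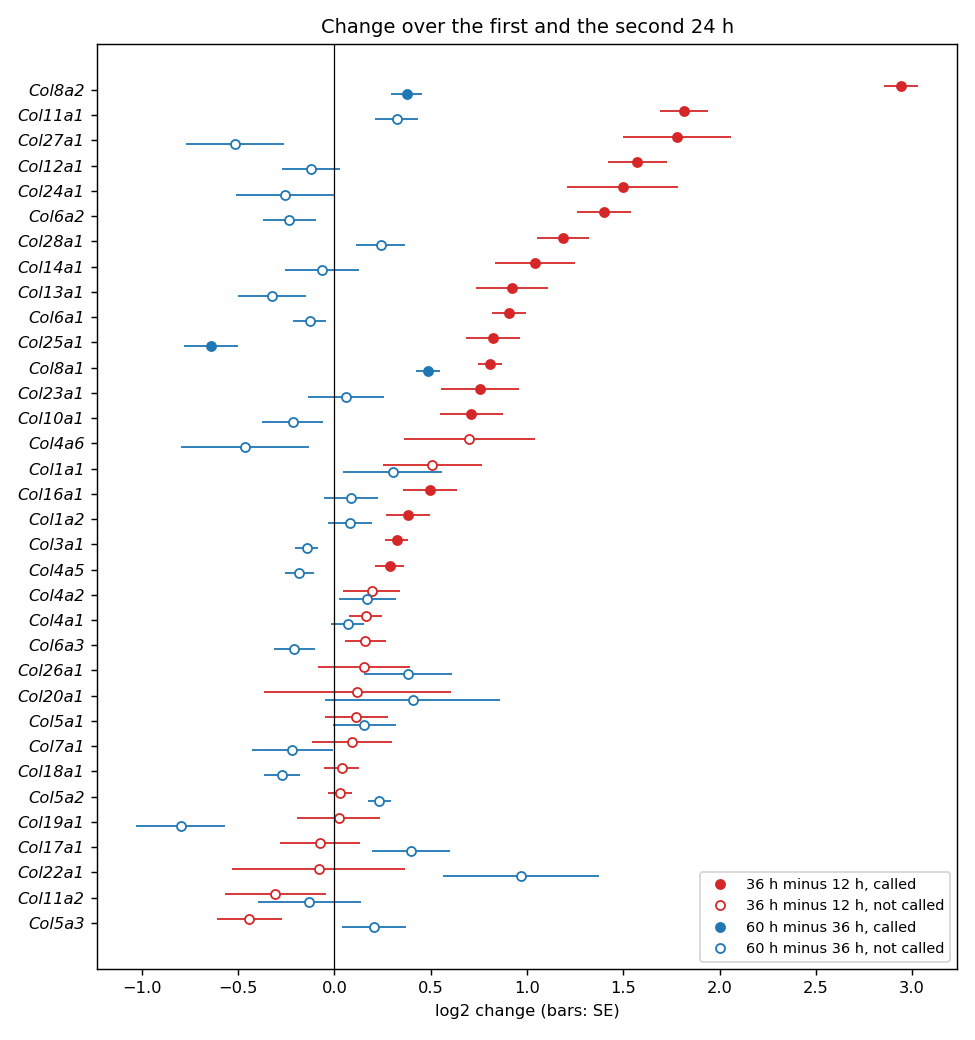
Log2 change from 12 to 36 h (red) and from 36 to 60 h (blue) for the 34 tested members, with the SE as bars and filled points where adjusted p was under 0.05. Of the first changes 18 are filled, all to the right of 0, and of the second changes 3 are filled, those of Col8a2, Col8a1 and Col25a1.

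No 24 h wave passed the test in the collagens. The rhythm test called 0 of 34 members at an adjusted p under 0.05 (0.0552% of all genes tested), with edgeR's quasi-likelihood test, and 2 of 34 had an unadjusted p under 0.05, as had 4.55% of all genes. One of these 2, Col24a1, had a fitted wave of 0.82 log2 (unadjusted p = 0.0117). On simulated counts the same test recovered 80% of genes with a 1.5-fold wave and 92% with a 2-fold wave, and smaller waves were not simulated. The simulated waves were set on an otherwise flat course, and waves on a course that rises and levels off were not simulated. More genes carried a wave in the simulation than the 7 the test called in the data. This makes an adjusted p under 0.05 easier to reach in the simulation. The shares of 80% and 92% therefore need not hold for the members and can be too high for them.

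Chains that can assemble into the same trimer changed by different amounts, and the ratio of their levels per kb moved accordingly. Ratios of 7 pairs were compared between 9 late libraries (48, 54 and 60 h) and 9 early libraries (12, 18 and 24 h). An exact two-sided permutation test was used, and p-values were adjusted over the 7 pairs. The test takes the libraries of a side as exchangeable, but they came from different times, and same-numbered libraries tended to deviate together. Within the early side the ratio of Col6a3 to Col6a2 drifted from 12.12 at 12 h to 6.129 at 24 h. The exact p-values can therefore overstate the evidence. With the replicate number as block, an exact p cannot go below 0.25. The ratio of Col8a2 to Col8a1 was 0.498 in the late and 0.163 in the early libraries, a log2 difference of 1.61 (exact permutation p = 4.1e-05, adjusted p = 0.000144), with no overlap. By time it was 0.116, 0.145, 0.259, 0.390, 0.508, 0.505, 0.510, 0.513 and 0.472 from 12 to 60 h, a climb to 36 h followed by a plateau.

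The ratio of Col6a3 to Col6a2 was 5.21 in the late and 8.64 in the early libraries (log2 difference -0.73, exact permutation p = 4.1e-05, adjusted p = 0.000144), again with no overlap, and that of Col6a1 to Col6a2 was 6.25 and 7.997 (-0.36, exact permutation p = 0.000494, adjusted p = 0.000691). The ratio of Col1a1 to Col1a2 was 0.776 in the late and 0.574 in the early libraries (0.43, exact permutation p = 0.000206, adjusted p = 0.00036). That of Col11a1 to Col5a2 was 0.00656 and 0.00307 (1.096, exact permutation p = 0.000123, adjusted p = 0.000288). The ratio of Col4a1 to Col4a2, whose genes share a start region, moved least among those that passed, 1.37 late and 1.53 early (-0.15, exact permutation p = 0.00712, adjusted p = 0.0083). For Col5a1 to Col5a2 the ratio was 0.652 late and 0.627 early, a difference of 0.06 log2 that did not pass (exact permutation p = 0.567). Within each of the 3 replicate numbers the differences had the sign of the pooled value for every pair except Col5a1 to Col5a2. The ratios themselves rest on the lengths used: with the longest transcript, Col1a1 to Col1a2 was 0.370 late and 0.274 early, and Col6a1 to Col6a2 was 3.94 and 5.04.

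**Figure D4:**
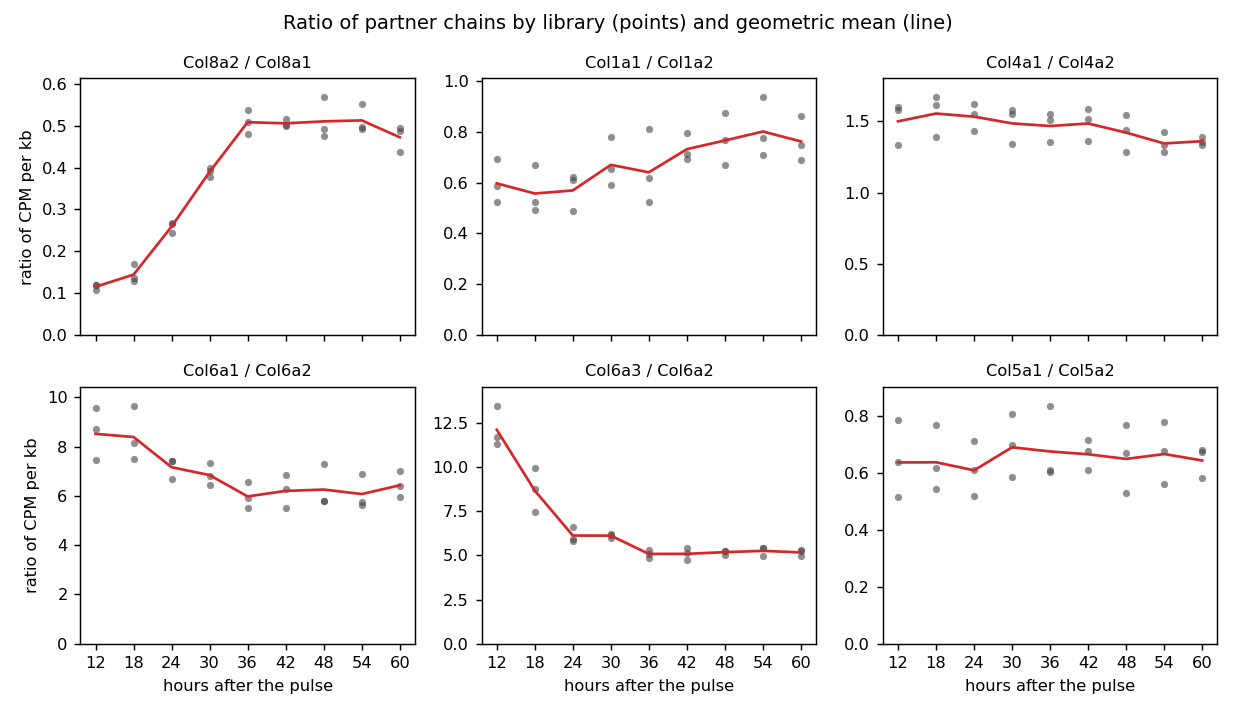
Ratio of CPM per kb of partner chains at 12 to 60 h for 6 pairs, a point per library and a line through the geometric mean of 3, each axis starting at 0. Col8a2 to Col8a1 climbs to 0.508 at 36 h and stays near it, Col6a3 to Col6a2 drops to 5.09 at 36 h, and Col5a1 to Col5a2 stays between 0.608 and 0.689.

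The enzymes that fold, modify and crosslink collagen also rose in part. The gene lists here and below were chosen with earlier results of these data known, so their shares are no independent support. Of 17 genes for chain folding and modification 15 were tested, and 9 rose by the trend and 0 fell (10.7% and 8.72% of all genes tested), with a median of 0.22 log2 against -0.01 for all genes. The 4 with the smallest trend p were prolyl hydroxylases, P4ha3 at 1.19 ± 0.18 log2 (adjusted p = 2.63e-05), the prolyl 3-hydroxylases P3h2 at 1.03 ± 0.17 log2 (adjusted p = 6.51e-05) and P3h1 at 0.36 ± 0.06 log2 (adjusted p = 3.26e-05), and P4ha2 at 0.43 ± 0.09 log2 (adjusted p = 0.000709). P4ha3 and P3h2 had low means of 9.24 and 3.11 CPM. The more abundant P4ha1 (mean 327.5 CPM) had a trend of 0.56 ± 0.12 log2 (adjusted p = 0.000821). Of 12 processing and crosslinking genes 11 were tested, and 5 rose by the trend and 0 fell, beside the same shares of all genes. Tll1, which like Bmp1 removes the C-terminal propeptide, had a trend of 1.56 ± 0.16 log2 (adjusted p = 6.82e-08) at a mean of 5.01 CPM, and Lox, the crosslinking lysyl oxidase, was at 1620 ± 142 CPM at 60 h and 977 ± 104 CPM at 12 h (SD, n = 3 each). Adamts2, which removes the N-terminal propeptide, rose by 0.62 ± 0.09 log2 and Bmp1 by 0.29 ± 0.06 log2 along the trend (adjusted p = 1.49e-05 and 0.000522).

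Of 8 collagen receptor genes 7 were tested, and 4 rose by the trend and 0 fell (10.7% and 8.72% of all genes tested). The integrin chain Itga11 was at 56.0 ± 7.3 CPM at 60 h and 13.4 ± 3.5 CPM at 12 h (SD, n = 3 each), and the related chains Itga10 and Itga1 and the uptake receptor Mrc2 had trends of 1.09 ± 0.19, 0.62 ± 0.17 and 0.56 ± 0.13 log2. At 60 h against 12 h, 4 were higher and 1 lower, the collagen-activated kinase Ddr2 (-0.39 ± 0.10 log2, adjusted p = 0.00772). At 36 h against 12 h, 4 were higher and 2 lower, Ddr2 (-0.54 ± 0.10 log2, adjusted p = 0.000445) and the shared integrin chain Itgb1 (-0.19 ± 0.05 log2, adjusted p = 0.015).

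Of 6 collagen-cleaving enzymes 3 were tested, and 2 were higher and 1 lower at 60 h than at 12 h (9.5% and 6.56% of all genes tested). The higher ones were the abundant membrane-bound Mmp14 (547 ± 26 CPM at 60 h and 387 ± 21 CPM at 12 h; 0.50 ± 0.07 log2, adjusted p = 2.11e-05) and Mmp2 (217 ± 10 CPM at 60 h and 169 ± 18 CPM at 12 h; 0.36 ± 0.10 log2, adjusted p = 0.012; SD, n = 3 each). Both were also higher at 36 h than at 12 h, and their trends did not pass (adjusted p = 0.124 and 0.44). The trend of Mmp9 fell by 3.33 ± 0.39 log2 (adjusted p = 4.78e-07) at a mean of only 0.612 CPM.

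Of 14 basement membrane partners, all tested, 4 rose by the trend (10.7% of all genes tested) and 1 fell (8.72%). Those that rose were Lamb3 (0.95 ± 0.09 log2), Nid2 (0.66 ± 0.16), Lama1 (0.62 ± 0.13) and Lama4 (0.60 ± 0.10), and Agrn fell (-0.37 ± 0.09). Of 14 inducers and regulators 13 were tested, and by the trend 3 rose and 1 fell, 1 of 13 being near the share of all genes. Ctgf, a matricellular target of TGF-beta, had 1.65 ± 0.22 log2, Tgfb2 0.61 ± 0.16, Smad2 0.21 ± 0.05 and Smad3 -0.54 ± 0.10.

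Markers of fibroblasts and smooth muscle moved in part with the collagens. Of all genes tested, 10.7% rose and 8.72% fell by the trend. At 60 h against 12 h 9.5% were higher and 6.56% lower, and at 36 h against 12 h 9.3% were higher. Of 6 fibroblast markers 3 were tested (Pdgfra, Pdgfrb and Dcn), and all 3 were higher at 60 h and at 36 h than at 12 h, while by the trend 1 of 3 rose, Pdgfrb (0.48 ± 0.10 log2, adjusted p = 0.000638; Pdgfra adjusted p = 0.775, Dcn 0.111). The list had a summed level of 600.6 to 647.4 CPM in the 60 h libraries and 408.5 to 439.7 CPM in the 12 h libraries. Thy1 and Tcf21 of that list were at 0 in all 27 libraries and Lum averaged 0.116 CPM. Of 5 smooth muscle markers 3 were tested (Acta2, Tagln and Cnn1), and all 3 rose by the trend and at 60 h against 12 h, with a summed level of 4940 to 5753 CPM at 60 h and 3179 to 3581 CPM at 12 h, while Myh11 averaged 0.188 CPM and Myocd 0.1 CPM. Myoblast and reserve cell markers summed to 144.9 to 162.8 CPM at 60 h and 162.7 to 179.8 CPM at 12 h, and 1 of 4 fell (Cd34). Of the 10 myotube markers 3 rose and 1 fell along the trend (Myog), and 1 of 10 is near the share of all genes that fell. Of 4 tenocyte, 5 chondrocyte, 4 osteoblast, 5 endothelial, 4 immune and 4 epithelial markers 1, 1, 1, 1, 2 and 1 were tested, and 0 passed the trend test. None of the 4 adipocyte markers had enough reads to be tested. Whether cells of any of these types were present, and whether they had a part in the collagen changes, was not tested.

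Col25a1 (chr3:130131501-130599877, plus strand), a transmembrane chain that mouse muscle needs to attract motor nerve endings, alternated from one collection to the next in the later part of the series. It had 34.2, 37.7 and 32.97 CPM at 36 h, 11.6, 19.3 and 21.0 CPM at 42 h, 29.1, 33.3 and 30.3 CPM at 48 h, 12.3, 9.78 and 13.0 CPM at 54 h, and 22.5, 20.9 and 23.8 CPM at 60 h. From 36 h on, the libraries of each time did not overlap with those of the time before or after. At 12, 18, 24 and 30 h the means were 19.7, 17.03, 21.1 and 19.3 CPM. It was higher at 36 h than at 12 h by 0.82 ± 0.14 log2 (adjusted p = 0.000168) and lower at 60 h than at 36 h (-0.64 ± 0.14 log2, adjusted p = 0.0247), and it had no trend that passed (0.15 ± 0.29 log2, adjusted p = 0.787). A contrast of the libraries of 12, 24, 36, 48 and 60 h against those of 18, 30, 42 and 54 h, chosen after these values were seen, put Col25a1 higher by 0.65 ± 0.07 log2 (adjusted p = 5.23e-06), and the call held with each of the 27 libraries left out in turn (0.59 to 0.69 log2). Since the contrast was built on the values it tests, neither this p nor the leave-one-out result is independent support for the alternation. By this contrast 1 of 34 members, Col25a1, was higher (0.772% of all genes tested) and 2 were lower (1.47%). The cause of the alternation was not tested.

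**Figure D5:**
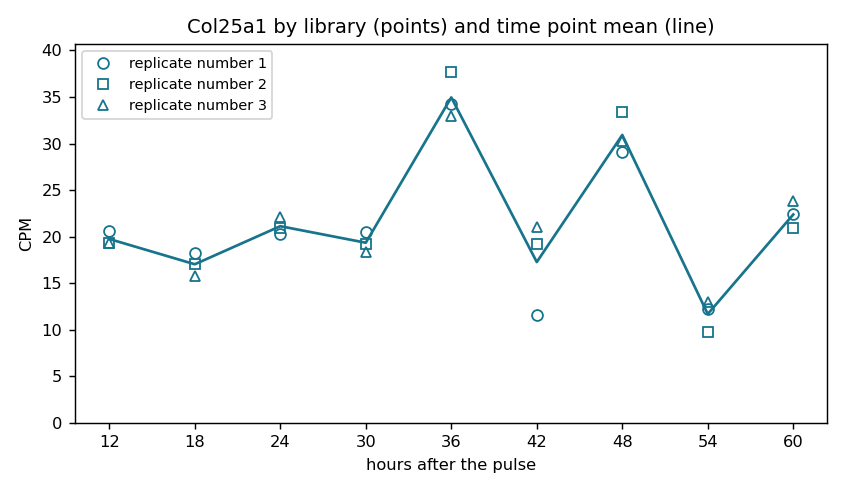
Col25a1 in CPM (axis from 0) at 12 to 60 h, with a point per library marked by its replicate number and a line through the means of 3. The means at 36 h (35.0 CPM) and 48 h (30.9 CPM) stand above those at 42 h (17.3 CPM) and 54 h (11.7 CPM).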

How the data were processed

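Gene counts of 27 C2C12 libraries, 9 times with 3 libraries each, were analysed. The authors deposited raw read counts per Ensembl gene, not normalized. Trimming with cutadapt 1.9.1 and Trim Galore 0.4.0, build mm10 and counting with featureCounts are listed in the submitters' processing notes. For the aligner, the annotation and how counting was set, nothing is given in the sources used here. GENCODE M21 gave names, lengths, GC content and positions and matched 20318 of 20446 identifiers, and RefSeq gave promoter windows. Libraries were grouped by the time and number in their titles.

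Genes passed edgeR's filterByExpr (minimum count 10), which left 12687 of 20446, and were scaled by TMM (factors 0.979 to 1.03). CPM are scaled counts without a prior count, and the biological coefficient of variation over all genes was 11.8%. The main test was edgeR's quasi-likelihood F test, adjusted over all genes tested: time as a factor (8 contrasts, 60 h against 12 h, 36 h against 12 h, 60 h against 36 h, and the difference of the last 2 changes), and a linear trend beside a 24 h wave. Levels per kb used the union of exons. The tools were edgeR 4.0.16, DESeq2 1.42.0 and limma 3.58.1 in R 4.3.3, with scipy 1.17.1 for the exact permutation tests and matplotlib 3.10.9 for figures, beside pandas 2.3.3 and numpy 2.4.6.

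The members and gene lists were chosen with earlier results of these data known. Library values at 12 and 60 h are given for members with a mean of at least 1 CPM called by both the trend and 60 h against 12 h, other tested members get a level, trend or call, and each list names up to 4 genes with the smallest trend p. Further values were chosen after they were seen.

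Counts were simulated with seed 1 and 25 genes per fold. Changes of 1.3, 1.5, 2 and 3-fold were found by the trend in 32%, 80%, 92% and 96% of genes. By 60 h against 12 h they were found in 16%, 64%, 76% and 92%. Changes of 1.5 and 2-fold confined to the first 24 h were found by the difference of the 24 h changes in 4% and 28%. Far fewer genes were changed in the simulation than these tests called in the data (1360 higher by the trend alone). The adjusted p depends on that number, so these shares need not hold for the data. Alternatives were limma-voom, DESeq2, scaling by median of ratios, a filter at a mean of 1 CPM or none, a replicate block, adjusted p under 0.01, each library left out, fits without the libraries numbered 2 or the 12 h or 60 h libraries, no wave, periods of 20, 22, 26 and 28 h, and for ratios a pseudocount of 0.5 CPM and 60 h against 12 h alone.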

Additional observations from a re-analysis of the deposited data

Results flagged for a closer look

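In 13 collagen chain genes the change over the second 24 h (36 to 60 h) differed from that over the first (12 to 36 h), by edgeR's quasi-likelihood test of the difference itself, and in all 13 the later change was the lower one. The log2 difference was -2.57 for Col8a2 (adjusted p = 1.94e-11), -2.29 for Col27a1 (adjusted p = 0.00178), -1.75 for Col24a1 (adjusted p = 0.0196), -1.69 for Col12a1 (adjusted p = 0.000102), -1.63 for Col6a2 (adjusted p = 5.82e-05), -1.49 for Col11a1 (adjusted p = 2.51e-05) and -1.47 for Col25a1 (adjusted p = 0.000236). It was -1.24 for Col13a1 (adjusted p = 0.0135), -1.04 for Col6a1 (adjusted p = 5.82e-05), -0.949 for Col28a1 (adjusted p = 0.0087), -0.927 for Col10a1 (adjusted p = 0.0429), -0.468 for Col4a5 (adjusted p = 0.0243) and -0.467 for Col3a1 (adjusted p = 0.00491).

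In Col8a2, Col11a1 and Col28a1 the estimated later change was still upward (0.38, 0.32 and 0.24 log2), and in the other 10 it was downward. Of these later changes only those of Col8a2 (upward) and Col25a1 (downward) passed the test of 60 h against 36 h. The direction of the rest is therefore uncertain. Without single libraries the call for the difference between the changes was lost in Col10a1 (11 libraries left out in turn), Col4a5 (5: the 12 h library numbered 1, those of 36 h numbered 1 and 2 and those of 60 h numbered 1 and 2), Col24a1 (3: the 12 h library numbered 2 and those of 36 h numbered 1 and 2), Col13a1 (2: those of 36 h numbered 1 and 3) and Col28a1 (1: the 36 h library numbered 3). Their highest adjusted p was 0.195 for Col10a1, 0.134 for Col4a5, 0.127 for Col24a1, 0.0803 for Col13a1 and 0.0884 for Col28a1. The cause of the difference was not tested.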

How the results depend on the processing

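The counts of members that changed at all, that were higher at 36 h or 60 h than at 12 h, or that had a rhythm (0 under every period tried) stayed within 1.5 times the reported ones under each alternative run for them. Members lower at 60 h than at 12 h numbered 1, and 0 at an adjusted p under 0.01. Members higher at 60 h than at 36 h numbered 2, and 1 at an adjusted p under 0.01 or without the libraries numbered 2, and those lower numbered 1, and 0 under the same settings. The 13 members with a lower second change were 8 without the libraries numbered 2. Without the 12 h libraries 10 members rose by the trend and 2 fell, against 16 and 1. For the alternation described for Col25a1, 2 members were lower, and 1 with no filter and 0 without the libraries numbered 2 or at an adjusted p under 0.01. With each library left out in turn, members lower at 60 h than at 12 h numbered 0 to 1, lower at 36 h than at 12 h 0 to 1, higher at 60 h than at 36 h 1 to 3, lower at 60 h than at 36 h 0 to 1, and lower in the alternation 1 to 3.

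Same-numbered libraries of different times deviated together in most pairs (median r = 0.331, 91 of 108 pairs over 0.1, lowest -0.0558; different numbers -0.19), and 26 of 27 libraries correlated best with their own number, a hint from the data only, since nothing states that the numbers mark a shared culture or batch. The main tests used no replicate block. With it, 27 members changed over the 9 times (21 without it). At 60 h against 12 h 21 were higher (18 without it), and at 36 h against 12 h 19 were (18 without it). With the replicate block, 2 members were lower at 60 h than at 12 h, 1 lower at 36 h than at 12 h, 4 higher and 2 lower at 60 h than at 36 h, 1 had a higher second change, 2 fell by the trend and 6 were lower in the alternation. The block left the ratio differences as they were and cannot go below an exact p of 0.25 with 3 numbers: 0.43 log2 for Col1a1 to Col1a2, -0.15 for Col4a1 to Col4a2, -0.36 for Col6a1 to Col6a2, -0.73 for Col6a3 to Col6a2, 1.61 for Col8a2 to Col8a1 and 1.096 for Col11a1 to Col5a2. With 60 h against 12 h alone, where an exact permutation p cannot go below 0.1, these were 0.35, -0.14, -0.41, -1.23, 2.03 and 1.88 log2.

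Trends that did not pass changed sign in 7 members. Without the 12 h libraries they were -0.42 for Col24a1, -0.15 for Col27a1 and -0.031 for Col13a1. For Col20a1 the trend was 0.0087 with limma-voom and 0.067 without the libraries numbered 2, for Col7a1 0.059 without the libraries numbered 2 and 0.128 without the 60 h libraries, and for Col4a5 0.00041, 0.040 and 0.046 under these 3 settings. With each library left out the trend spanned -0.25 to 0.15 for Col20a1, -0.077 to 0.083 for Col7a1, -0.070 to 0.011 for Col4a5 and -0.0066 to 0.16 for Col5a3. Total count scaling moved 0 of 32 levels, and the longest transcript moved 17 of 32 levels per kb by more than the spread between replicates. Causes were not tested. Depth limits the members under 1 CPM and those below the filter.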

Other observations

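Collagen genes that lie side by side did not share 1 pattern. Col6a2 and Col6a1 lie 85161 bases apart on the same strand of chromosome 10 and had trends of 1.097 and 0.65 log2. Col4a6 and Col4a5 start 1308 bases apart in opposite directions on the X chromosome, at 1.04 and 72.5 CPM, and neither trend passed. Col9a1 and Col19a1 end 9205 bases apart on chromosome 1, the first below the filter and the second lower at 60 h.

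Besides Col25a1, the contrast of alternate collections put Col8a2 (-0.18 ± 0.04 log2, edgeR, adjusted p = 0.0134) and Col27a1 (-0.47 ± 0.12 log2, adjusted p = 0.0474) lower at 12, 24, 36, 48 and 60 h than at 18, 30, 42 and 54 h. The contrast was chosen after the Col25a1 values were seen, and the low 12 h level of both genes enters it. The Col27a1 call was lost in 23 of 34 alternative settings, among them 20 of the 27 libraries left out in turn (highest adjusted p among these = 0.11), and that of Col8a2 in 1 of 34 and in 0 of the 27.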
